A study of Mus musculus with 24 samples.

Results

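The effect of mogroside V, averaged over high glucose and normal glucose, was measured by RNA-seq in cultured neuronal cells from the hypothalamus of adult mice. Treated libraries carried the titles HG1, HG2 and HG3 (high glucose) and NG1, NG2 and NG3 (normal glucose), and untreated libraries the titles HGC and NGC. Of the 24 libraries, 2 (HG2 replicate 3 and HG3 replicate 2) had identical counts on all 56946 lines and were counted as 1 library. That left 23, of which 17 were treated (8 in high and 9 in normal glucose) and 6 were untreated (3 in each medium). The study used mogroside V at 15, 60 and 160 µM, but no label ties a number in a title to a concentration, so the titles are kept as dose labels 1, 2 and 3. All groups were cultures of the same kind of cell in 1 of the 2 media, and the time of exposure and the clonal origin of the cells are not given in the labels used here. The labels do not say whether replicates were separate cultures, so a p-value here covers the spread among these libraries, which may be technical.

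Mogroside V is a triterpene glycoside, the main sweet compound of monk fruit (Siraitia grosvenorii). Sweet compounds bind a receptor made of the subunits Tas1r2 and Tas1r3, which signals through the G protein gustducin, a phospholipase C and the channel Trpm5 in taste cells. Hypothalamic neurons follow blood glucose through glucose transporters and ATP-sensitive potassium channels, and answer to insulin and leptin. Inside many cell types glucose is also read by the transcription factors of the Mondo family, Mlxip and Mlxipl with their partner Mlx, which switch on Txnip and Arrdc4.

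The 23 libraries held 3272671 to 7773074 counts in genes. No library-level measure passed a test between treated and untreated libraries. Reads in no annotated feature took 18.3% ± 1.52 of reads in treated libraries and 17.99% ± 0.355 in untreated libraries (SD, n = 17 and 6), with the lowest p of the 6 measures (exact permutation test within medium, two-sided, p = 0.600, adjusted p = 0.676). The library NG3 replicate 3 stood apart from the others: its first and second principal component scores were -51.4 and -47.3, and 14.4% of its reads fell in no feature. Results are given with it and without it where it mattered. Many defining transcripts of the labelled cell type had few counts. Of 20 neuronal markers 9 were abundant enough to test, with Tubb3 at a mean of 59.5 CPM (counts scaled to a common library total) in treated and 56.1 CPM in untreated libraries, while Rbfox3 had 10 counts over all 23 libraries, Snap25 had 3 and Elavl4 had 0. Of 22 genes of hypothalamic feeding circuits 2 could be tested (Insr and Npy1r), and the peptide genes Agrp, Pomc and Npy had 14, 10 and 1 counts. The collagen gene Col1a1 averaged 1390 CPM in treated and 1330 CPM in untreated libraries. Genes that every cell uses were also at or near 0 in these files (mt-Co2 and mt-Co3 had 0 counts, mt-Atp6 had 2 and Fen1 had 20), so a low count does not show that a gene was not expressed. In pooled culture RNA, fewer cells of a type and less RNA per cell cannot be told apart.

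No gene passed the test of treated against untreated libraries over both media. With medium as a covariate, 0 of 13332 genes (0%) reached an adjusted p of 0.05 in edgeR's quasi-likelihood test, the lowest adjusted p being 0.244, for Neat1. At an unadjusted p of 0.05 there were 579 genes (4.34%), of which 329 (2.47%) were higher and 250 (1.88%) lower in treated libraries. DESeq2 called 1 gene, Neat1, and had 630 at that unadjusted p. Without NG3 replicate 3 the edgeR count was 0 of 13276 and the lowest adjusted p 0.307, with 647 genes (4.87%) at an unadjusted p of 0.05. By contrast, 1343 genes (10.1%) passed for the medium term of the same fit.

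For most genes the libraries bounded the change averaged over both media closely, less so the change within 1 medium. The median standard error of the log2 change was 0.14, and the 95% interval of the change lay within 1.5-fold in both directions for 9193 genes (69.0%) and within 2-fold for 11639 (87.3%). The median change over all genes tested was 0.00044 on the log2 scale. Within 1 medium the interval lay within 1.5-fold for 6939 genes (52.0%) in high and 7014 (52.6%) in normal glucose. For no gene did all 17 treated libraries lie above or below all 6 untreated ones.

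The long noncoding RNA Neat1 (ENSMUSG00000092274), which builds the nuclear bodies called paraspeckles, had the lowest p. Treated libraries had 353, 468 and 660 CPM (lowest, median and highest), and the 6 untreated libraries had 770, 931 and 576 CPM in high glucose and 543, 697 and 477 CPM in normal glucose. In 13 of 17 treated libraries Neat1 was below every untreated library of the same medium, although the ranges overlapped in both media. Its log2 change was -0.44 ± 0.09 (SE; 95% interval -0.62 to -0.26; edgeR unadjusted p = 1.83e-05, adjusted p = 0.244), with -0.46 in high and -0.43 in normal glucose. Whether it passed the test hung on the fit and on single libraries. It passed in DESeq2 (adjusted p = 0.0420), and in edgeR with no low-count filter (adjusted p = 2.37e-07), without NG1 replicate 3 (adjusted p = 0.0365) or without HGC replicate 3 (adjusted p = 0.00994). Without HGC replicate 2 its change was -0.37 and its adjusted p 0.745, and without NGC replicate 2 the change was -0.38 and the adjusted p 0.999. Of the 8 nuclear noncoding RNAs listed with it, 5 were tested, and 1 (Neat1) had an unadjusted p under 0.05, beside 4.34% of all genes. Their changes were negative for 5 of 5 over both media (median -0.14), for 2 of 5 in high glucose (median 0.03) and for 5 of 5 in normal glucose (median -0.36), beside 6645, 6531 and 6428 of all 13332 genes.

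**Figure D1:**
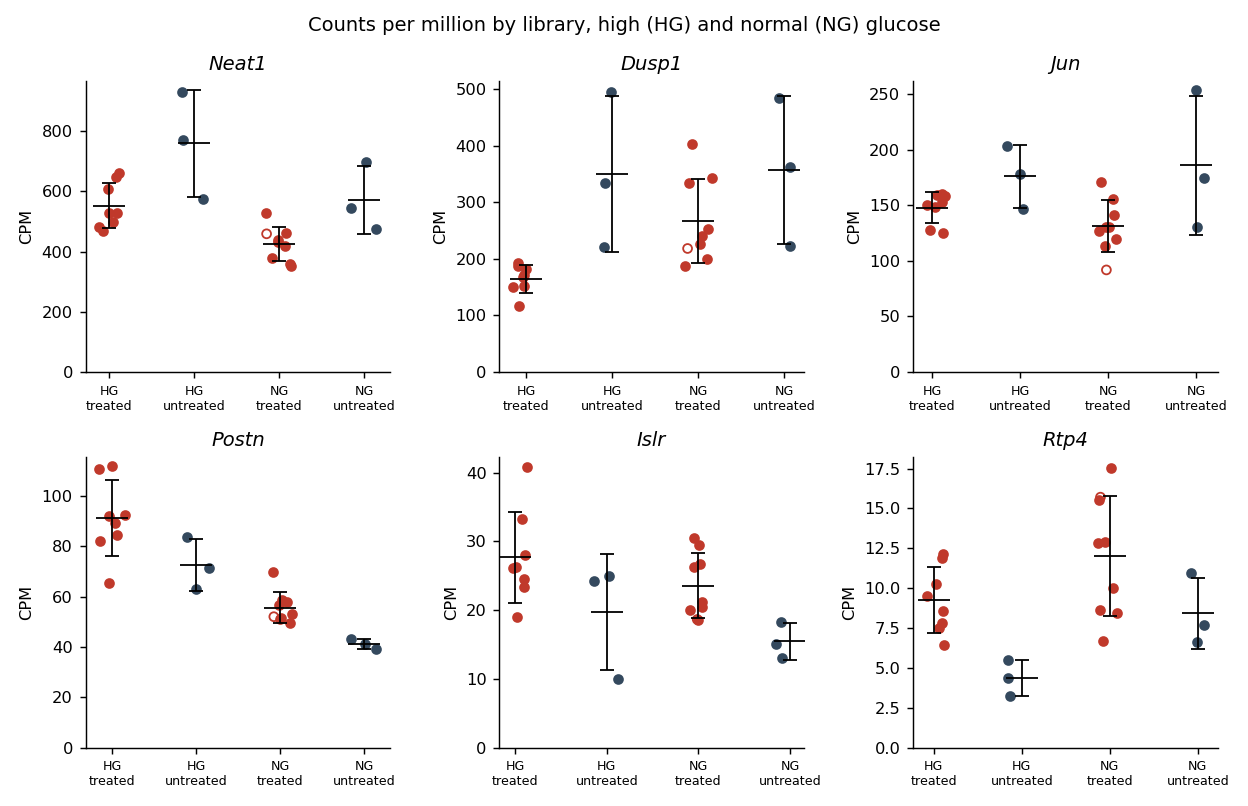
Abundance of 6 genes in each library, in TMM-scaled CPM, with treated libraries left of untreated ones in each medium. Points are single libraries, lines and bars the mean ± SD, and the open circle NG3 replicate 3. Neat1 was below every untreated library of its medium in 13 of 17 treated libraries and Postn above in 15 of 17; treated and untreated libraries did not overlap for Dusp1 and Rtp4 in high glucose and for Postn and Islr in normal glucose.

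The other transcripts with the lowest p-values on the lower side had changes of -0.27 to -1.27. Topors, a ubiquitin and SUMO ligase, had 52.0, 93.0 and 126 CPM in treated libraries (lowest, median and highest) and 95.1, 114 and 139 CPM in untreated libraries, a log2 change of -0.37 ± 0.09. Snhg5, a host transcript of small nucleolar RNAs, had 57.2, 71.9 and 91.8 CPM in treated and 79.9, 94.95 and 107 CPM in untreated libraries, a change of -0.34 ± 0.09. In 14 and 13 of the 17 treated libraries, for Topors and Snhg5 in this order, the value was below every untreated library of its medium. Genes named for low p in these same libraries, Neat1 and Postn among them, tend to have high counts of this kind. The counts therefore only describe them. The cyclin Ccnl1, which works in splicing, had a change of -0.30 ± 0.08, and Phf3, which binds RNA polymerase II, one of -0.27 ± 0.07. The mitochondrial cysteine tRNA mt-Tc had the widest change of the group, -1.27 ± 0.31, at 10.8, 24.3 and 57.5 CPM in treated and 27.9, 54.0 and 120 CPM in untreated libraries. Gm36988 had a change of -0.43 ± 0.12. None of these passed (edgeR adjusted p 0.707 to 0.722).

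Dusp1, a phosphatase that switches off MAP kinases and is itself switched on by them, had a log2 change of -0.76 ± 0.19 (95% interval -1.15 to -0.37; unadjusted p = 0.000610, adjusted p = 0.707). In high glucose the 8 treated libraries had 117, 169 and 193 CPM (lowest, median and highest), against 334, 221 and 495 CPM in the untreated ones, and the groups did not overlap. Such separation was found for 171 genes in high glucose, 1.28% of those tested. In normal glucose treated libraries ranged from 188 to 402 CPM and the untreated ones had 484, 361 and 223 CPM, so the groups overlapped. The log2 change was -1.08 in high glucose (unadjusted p = 0.000349, adjusted p = 0.680) and -0.42 in normal glucose. Without robust estimation of the spread Dusp1 and mt-Tc passed over both media (adjusted p = 0.0477 for both).

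Immediate early genes, which are transcribed within minutes of a stimulus, did not share a direction. Of 25 such genes 24 were tested, 2 had an unadjusted p under 0.05 with higher values in treated libraries (2.47% of all genes) and 3 with lower values (1.88% of all genes), and the median change was -0.04. Fos, a subunit of the AP-1 transcription factor, had 27.0, 46.7 and 86.0 CPM in treated and 23.2, 33.0 and 44.2 CPM in untreated libraries, a change of 0.61 ± 0.19 (unadjusted p = 0.00445, adjusted p = 0.995). Its AP-1 partner Jun had 91.8, 141 and 171 CPM in treated and 130, 176 and 253 CPM in untreated libraries, a change of -0.39 ± 0.11 (unadjusted p = 0.00130, adjusted p = 0.912). The untreated normal glucose libraries alone spread over Jun values of 254, 174 and 130 CPM. The stress factor Atf3 had a change of 0.43 ± 0.21 and the antiproliferative gene Btg2 one of -0.30 ± 0.13. Without NGC replicate 1 the changes of Jun and Btg2 were -0.24 and -0.18.

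On the higher side Postn (ENSMUSG00000027750), which encodes the matrix protein periostin, had the lowest p, with a log2 change of 0.38 ± 0.09 (95% interval 0.20 to 0.56; unadjusted p = 0.000130, adjusted p = 0.707). In high glucose the 8 treated libraries had 65.5, 90.7 and 112 CPM (lowest, median and highest), against 83.5, 63.1 and 71.3 CPM in untreated libraries, and the groups overlapped. In normal glucose the 9 treated libraries had 49.6, 53.2 and 69.9 CPM, against 41.2, 39.1 and 43.3 CPM in untreated libraries. These did not overlap, as for 190 genes in normal glucose, 1.43% of those tested. Over both media 15 of 17 treated libraries were above every untreated library of their medium.

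Other genes on the higher side had larger fold changes at lower abundance. Rtp4, an interferon-induced chaperone of G protein-coupled receptors, had 6.45, 9.98 and 17.5 CPM in treated and 3.23, 6.08 and 10.9 CPM in untreated libraries, a change of 0.74 ± 0.20. Islr, a secreted protein of mesenchymal cells, had 18.6, 26.2 and 40.8 CPM in treated and 10.03, 16.7 and 24.9 CPM in untreated libraries, a change of 0.56 ± 0.15. Over both media these ranges overlapped, while Rtp4 in high glucose and Islr in normal glucose did not overlap. Gab1, an adaptor that joins growth factor receptors to PI3 kinase and Ras, had a change of 0.42 ± 0.12, and Mir22hg, the host transcript of miR-22, one of 0.57 ± 0.16. The organic anion transporter gene Slco3a1 had a change of 0.31 ± 0.09, and Kremen1, a receptor of the Wnt inhibitors of the Dickkopf family, one of 0.63 ± 0.19. Timm21, a protein of the mitochondrial import machinery, Zfp746, a zinc finger repressor, and Gm4204 had changes of 0.63, 0.56 and 0.68. None passed (edgeR adjusted p 0.707 to 0.995). For the interferon-induced genes as a list, 16 of 20 were tested and 0 had an unadjusted p under 0.05 in either direction. The share over all genes was 4.34%. The median change of the list was 0.05.

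**Figure D2:**
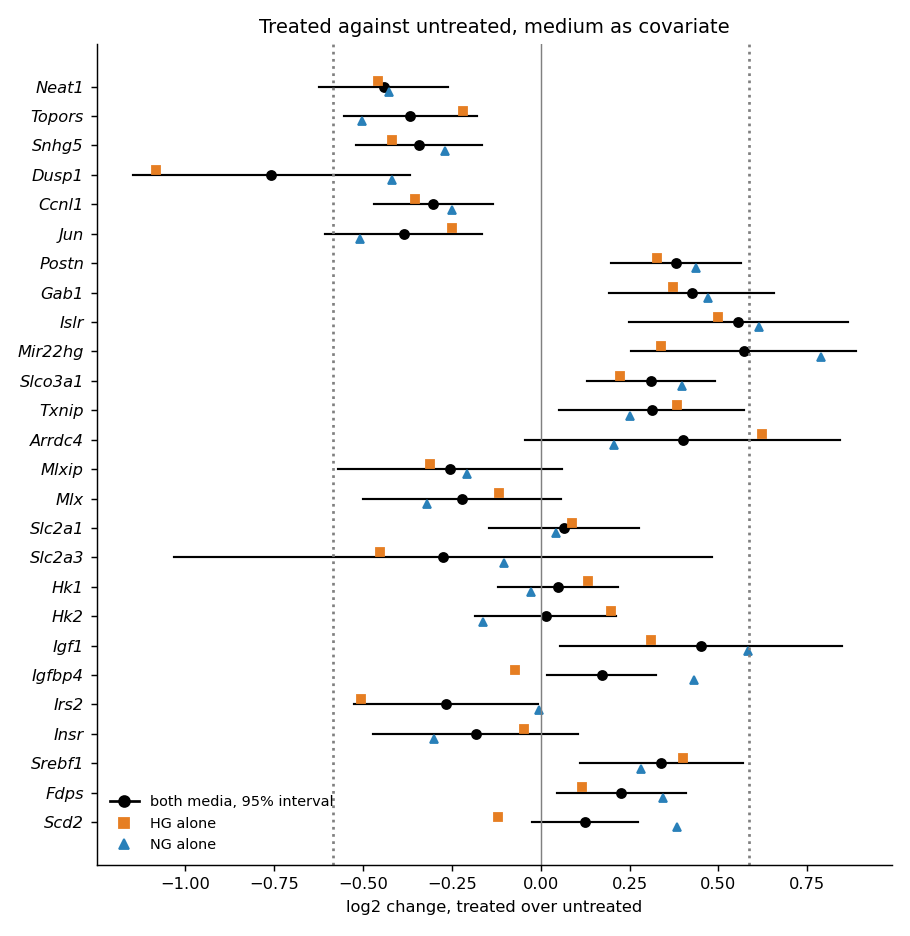
Log2 change of treated over untreated libraries for 26 genes. Circles and bars are the change over both media with its 95% interval, squares the change in high glucose and triangles that in normal glucose, and dotted lines mark a 1.5-fold change. Most intervals leave out 0, which follows in part from naming many of these genes by low p. Of all 13332 genes 4.34% had an unadjusted p under 0.05, and none passed after adjustment. For Irs2, Igfbp4 and Scd2 the squares and triangles lie far apart.

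Genes of the route by which sweet compounds act in taste cells had few counts. Of 20 genes of sweet taste and glucose sensing 8 were tested. The receptor subunits Tas1r2 and Tas1r3 had 9 and 26 counts in all over the 23 libraries, with highest values of 0.823 and 1.28 CPM. Gnat3, the gustducin alpha subunit, had 1 count, Plcb2 had 1 and Trpm5 had 4. The glucose transporter gene Slc2a2 had 6 counts, the potassium channel subunit Kcnj11 had 4 and its partner Abcc8 had 0. The insulin-responsive glucose transporter gene Slc2a4 had 60 counts and the sodium-glucose cotransporter gene Slc5a1 had 0. At these depths a difference in them was not detectable.

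Of the 8 glucose-sensing genes that could be tested, 1 had an unadjusted p under 0.05, beside 4.34% of all genes. Txnip, an arrestin that restrains glucose uptake and is a target of the Mondo factors, had 71.8, 117 and 196 CPM in treated and 69.6, 86.4 and 168 CPM in untreated libraries. Its ranges overlapped, and its change was 0.31 ± 0.13 (95% interval 0.05 to 0.57; unadjusted p = 0.0204, adjusted p = 0.995). Arrdc4, a related arrestin, had a change of 0.40 ± 0.22 (interval -0.04 to 0.84). The transcription factor Mlxip had a change of -0.26 ± 0.16 and its partner Mlx one of -0.22 ± 0.14, while Mlxipl had 4 counts in all. The changes of the glucose transporter Slc2a1 (0.06 ± 0.10) and of the hexokinases Hk1 (0.05 ± 0.08) and Hk2 (0.01 ± 0.10) had intervals within 1.5-fold, and that of Slc2a3 (-0.28 ± 0.38, at 0.461 to 3.9 CPM in treated and 0.965 to 5.38 CPM in untreated libraries) did not. The signs of Slc2a1, Slc2a3 and Hk2 turned when single libraries were left out, and the changes of Arrdc4 without HGC replicate 3 and of Mlx without NGC replicate 2 were 0.26 and -0.10.

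The insulin, IGF and leptin pathway had 23 of 26 genes tested, with 2 higher and 1 lower at an unadjusted p under 0.05 and a median of -0.01. Over all genes 2.47% were higher and 1.88% lower at that level. Igf1, a growth factor, had a change of 0.45 ± 0.20 at 3.44, 8.47 and 11.8 CPM in treated and 5.07, 6.59 and 7.27 CPM in untreated libraries. Igfbp4, which binds and holds back IGF proteins, had a change of 0.17 ± 0.08. Irs2, the adaptor below the insulin and IGF1 receptors, had a change of -0.27 ± 0.13 over both media and of -0.51 in high glucose, where treated libraries had 66.7, 81.1 and 102 CPM and untreated libraries 113, 112 and 124 CPM, without overlap. The receptor genes Insr and Npy1r (neuropeptide Y) had changes of -0.18 ± 0.14 (-0.099 without NGC replicate 1) and 0.54 ± 0.36. Among 13 AMPK and sirtuin genes tested, Prkaa1, a catalytic subunit of the energy sensor AMPK, was the only one at that unadjusted level (edgeR adjusted p = 0.995). It had 34.6, 41.5 and 51.5 CPM in treated and 46.9, 49.7 and 51.9 CPM in untreated libraries, a change of -0.22 ± 0.09.

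Few genes of lipid and energy metabolism reached an unadjusted p of 0.05 over both media, as was so of all genes (2.47% higher and 1.88% lower). Srebf1, the transcription factor of fatty acid synthesis, had 24.8, 31.6 and 40.9 CPM in treated and 16.4, 25.7 and 29.6 CPM in untreated libraries, a change of 0.34 ± 0.11 (unadjusted p = 0.00471, adjusted p = 0.995), and was 1 of 16 tested genes of that pathway at an unadjusted p under 0.05. The desaturase gene Scd2 had a change of 0.12 ± 0.07 (0.066 without NGC replicate 1). Of 24 genes of cholesterol synthesis and uptake, 1 was at that level, Fdps (farnesyl diphosphate synthase, 0.23 ± 0.09). Of 19 glycolysis genes 1 was higher, and of 7 genes of the pentose phosphate pathway 1, Rpia (0.29 ± 0.11), while no fatty acid oxidation gene of 12, TCA cycle gene of 15 or lysosome and autophagy gene of 27 was at that level in either direction. Among nuclear genes of complex I, 1 of 17, Ndufs3, was higher (0.31 ± 0.13), and of 8 tested mitochondrially encoded genes 1, mt-Co1, was lower (-0.15 ± 0.07, and -0.094 without NGC replicate 3). The intervals of all 27 lysosome genes, all 15 TCA cycle genes and all 17 complex I genes lay within 1.5-fold.

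Of extracellular matrix and TGF-beta genes, 5 of 31 tested were higher and 1 lower at an unadjusted p under 0.05, beside 2.47% and 1.88% of all genes, and their median change was -0.02. Beside Postn, these included Thbs2, which encodes the matrix glycoprotein thrombospondin 2 (0.19 ± 0.07), and Col3a1, a fibrillar collagen gene (0.15 ± 0.07), and the lower one was Timp3, an inhibitor of matrix metalloproteinases (-0.24 ± 0.09). Without NGC replicate 1 the change of Timp3 was -0.13, and without NGC replicate 2 that of Col3a1 was 0.093. The 9 fibroblast and pericyte markers include the matrix genes Col1a1, Col1a2 and Col3a1, so they are not separate from this list. Their summed level ran from 6987 to 7963 CPM in treated and from 7245 to 7896 CPM in untreated libraries in high glucose. In normal glucose it ran from 5767 to 7815 CPM in treated and from 6660 to 6999 CPM in untreated libraries. The part of the markers in these values was not tested. Of 13 p53 target genes 2 were higher and 2 lower, among them the antioxidant regulator Sesn1 (0.44 ± 0.19) and the cell cycle inhibitor Cdkn1a (-0.26 ± 0.10). Without HGC replicate 1 the change of Sesn1 was 0.74, and without HGC replicate 3 that of Cdkn1a was -0.16. The aryl hydrocarbon receptor gene Ahr, of a list of 13 tested genes of xenobiotic response and transport, had a change of 0.20 ± 0.09, and the clock repressor Cry1, the only one of 14 clock genes at an unadjusted p under 0.05, one of -0.38 ± 0.16.

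The change over both media is an average of 2 changes, which were also fitted apart. In high glucose 0 genes passed in edgeR (0%) and 0 in DESeq2, and 703 (5.27%) had an unadjusted p under 0.05, of which 379 (2.84%) were higher and 324 (2.43%) lower in treated libraries. In normal glucose 2 passed (0.015%), both lower in treated libraries, and 1080 (8.1%) had an unadjusted p under 0.05, of which 490 (3.68%) were higher and 590 (4.43%) lower. Dkc1 (ENSMUSG00000031403), the pseudouridine synthase of box H/ACA ribonucleoproteins, fell in normal glucose by 0.51 on the log2 scale, at 103, 139 and 150 CPM in treated and 227, 174 and 168 CPM in untreated libraries. Esf1 (ENSMUSG00000045624), a nucleolar protein of ribosomal RNA processing, fell there by 0.53, at 99.2, 133 and 164 CPM in treated and 214, 188 and 163 CPM in untreated libraries (adjusted p = 0.0397 for both). Dkc1 did not overlap between the groups and Esf1 did, through 1 treated library. In high glucose their changes were 0.13 and -0.01. Both calls were lost in 14 of 23 fits that left out 1 library, untreated libraries of either medium among them (NGC replicates 1 and 2, HGC replicates 1 and 3), and over all alternatives the adjusted p of Dkc1 ran from 0.000831 to 0.9999. Without NGC replicate 3, NG1 replicate 2 or NG3 replicate 2 the number of genes called was 9, 5 or 4.

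Without NG3 replicate 3, 7 genes passed in normal glucose (0.0527%). Beside Dkc1 and Esf1 (adjusted p = 0.0194 for both) they were the RNA helicase gene Ddx21 (-0.43), the translation initiation subunit gene Eif3a (-0.37), the kinase gene Cdk11b (-0.39), the mitotic kinesin gene Kif20b (-0.43) and, on the higher side, Igfbp4 (0.42). In NG3 replicate 3 itself Kif20b was at 29.7 CPM and Ddx21 at 138 CPM, below the other 8 treated normal glucose libraries (133 to 183 CPM for Kif20b and 236 to 312 CPM for Ddx21). In normal glucose the summed level of 12 astrocyte and tanycyte markers, of which 5 were tested, was also lower in treated than in untreated libraries without overlap, at 3326 to 3793 CPM in treated against 3832 to 4291 CPM in untreated libraries. Most of that sum was Vim (unadjusted p = 0.00879), while Gfap had 5 counts in all and Aqp4 had 0. In high glucose the sums were 2966 to 3906 CPM in treated and 3035 to 3397 CPM in untreated libraries. The part of these markers in the normal glucose results was not tested. Such separation was not particular to them. In normal glucose the sums of the insulin, IGF and leptin, fatty acid synthesis, and lysosome and autophagy lists were higher in treated libraries without overlap. That of ribosome biogenesis was lower without overlap (3559 to 4277 CPM in treated and 4485 to 4780 CPM in untreated libraries). In high glucose the fatty acid synthesis, lysosome and autophagy, and ribosome biogenesis sums overlapped. The insulin, IGF and leptin sum was lower there without overlap (2483 to 2728 CPM in treated, 2751 to 2787 CPM in untreated libraries). So were the sums of the p53 target list and of the Notch and Wnt list in high glucose.

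Across genes the changes in the 2 media had no positive relation among well-expressed genes. The 2 comparisons share no library. Over the 6706 genes with a mean of at least 20 CPM, the change in high glucose against that in normal glucose had a Pearson r of -0.18 and a Spearman rho of -0.21, and 2916 genes (43.5%) had the same sign. Without NG3 replicate 3 the values were -0.18 and -0.22. Over all 13332 genes they were 0.03 and -0.07. Genes are not independent replicates, and within each medium all genes share the same 3 untreated libraries, so these are descriptions.

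**Figure D3:**
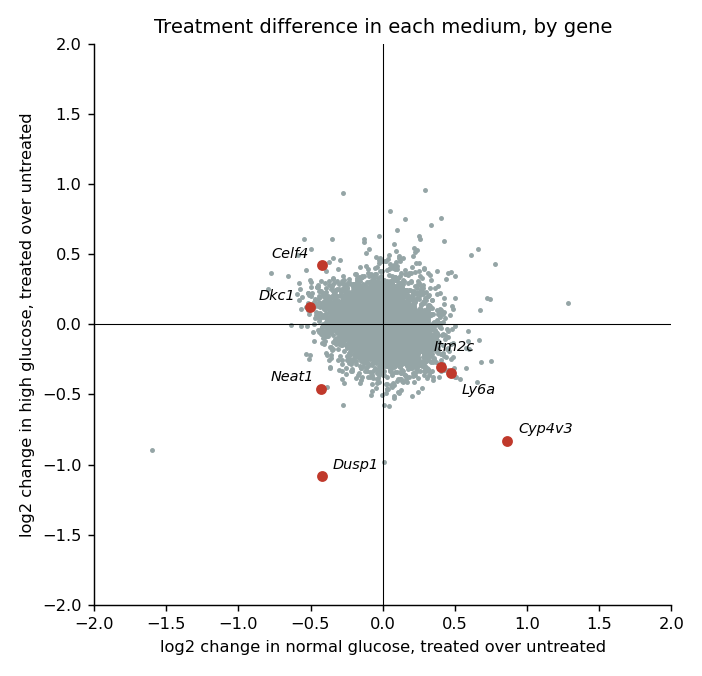
Log2 change of treated over untreated libraries in high glucose (vertical) against normal glucose (horizontal) for 6706 genes with a mean of at least 20 CPM, with named genes marked and Cyp4v3, which is below that level, added. The cloud has no rising trend (Pearson r -0.18); Neat1 lies low in both media, and Celf4, Itm2c, Ly6a and Cyp4v3 lie in quadrants of opposite sign.

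For 4 genes (0.03%) the change itself differed between the media, measured as high glucose minus normal glucose in 1 fit, and 1112 genes (8.34%) had an unadjusted p under 0.05, 550 (4.13%) positive and 562 (4.22%) negative. Celf4 (ENSMUSG00000024268), a neuronal RNA-binding protein, had 118, 128 and 145 CPM (lowest, median and highest) in treated and 105, 83.1 and 105 CPM in untreated libraries in high glucose. In normal glucose it had 97.9, 108 and 129 CPM in treated and 150, 148 and 148 CPM in untreated libraries. Treated libraries were thus all above the untreated ones in high glucose and all below them in normal glucose (0.42 and -0.42), and the difference of 0.84 ± 0.14 passed (adjusted p = 0.00487). Without HGC replicate 2, the lowest untreated library in high glucose, it was 0.73 and did not pass (adjusted p = 0.0984).

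Itm2c, which encodes a membrane protein that binds the amyloid precursor protein, ran the other way. It had 107, 111 and 115 CPM in treated and 136, 127 and 149 CPM in untreated libraries in high glucose, and 115, 124 and 153 CPM in treated and 85.9, 102 and 108.5 CPM in untreated libraries in normal glucose, a difference of -0.71 (adjusted p = 0.0406). Its groups did not overlap in either medium. Ly6a, a lipid-anchored surface antigen, had 60.8, 68.2 and 75.8 CPM in treated and 83.2, 92.9 and 82.0 CPM in untreated libraries in high glucose, and 72.0, 109 and 121 CPM in treated and 70.4, 77.5 and 75.2 CPM in untreated libraries in normal glucose. It overlapped in normal glucose only, and the difference was -0.81 (adjusted p = 0.0441). Cyp4v3, a fatty acid hydroxylase, had 5.81, 8.22 and 11.6 CPM in treated and 16.2, 16.1 and 12.2 CPM in untreated libraries in high glucose, and 6.87, 9.61 and 11.7 CPM in treated and 5.46, 5.79 and 4.28 CPM in untreated libraries in normal glucose, with no overlap in either medium and a difference of -1.69 (adjusted p = 0.0441). With 1 library left out, Itm2c did not pass in 14 of 23 fits, Ly6a in 17 and Cyp4v3 in 18, and without HGC replicate 2 no gene passed in edgeR for the difference of the treatment effect between media, with 882 at an unadjusted p under 0.05. The number called was 20 without NGC replicate 3 and 7 without NG2 replicate 2. Without NG3 replicate 3 the same 4 genes passed for the difference (edgeR adjusted p 0.00171 to 0.0221). Over both media the changes of the 4 genes were between -0.09 and 0.06. Groups that did not overlap in both media, in opposite directions, were found for 3 genes (0.0225%), Celf4, Itm2c and Cyp4v3, and for 0 in the same direction.

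**Figure D4:**
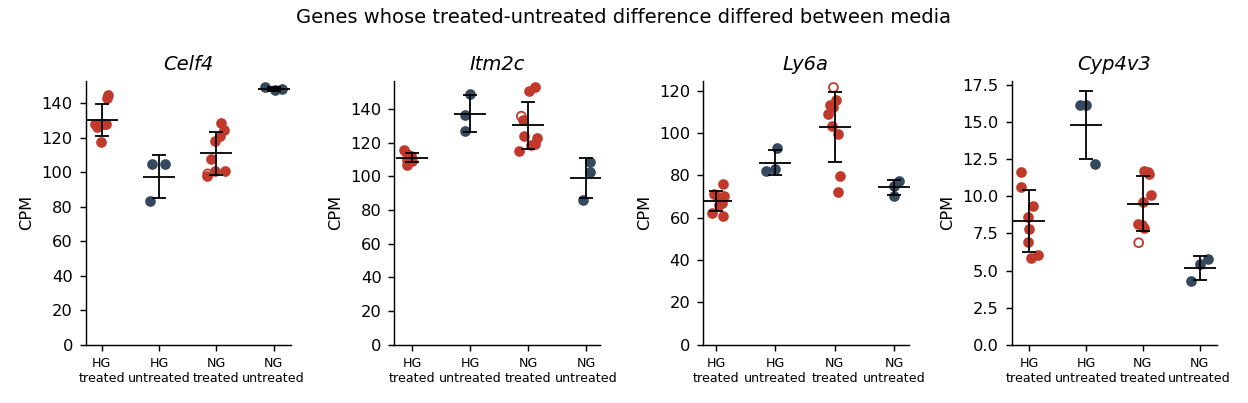
Abundance of Celf4, Itm2c, Ly6a and Cyp4v3 in each library in TMM-scaled CPM, treated left of untreated in each medium, with mean ± SD and NG3 replicate 3 as an open circle. Celf4 was higher in treated libraries in high glucose and lower in normal glucose, and the other 3 genes showed the reverse.

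Of the 51 lists, ribosome biogenesis had the highest number, though not the highest share, of members with an unadjusted p under 0.05 for the difference between media. All 24 of its genes were tested, and over both media 0 were higher and 3 lower at that level, with a median of -0.08 and all 24 intervals within 1.5-fold. In high glucose 2 were higher and 0 lower (median 0.03), in normal glucose 0 were higher and 10 lower (median -0.13), and the difference was positive for 9 and negative for 0. The nucleolar proteins Ncl and Nolc1 had changes of -0.16 ± 0.06 and -0.21 ± 0.08 over both media, and the snoRNP protein gene Nop58 had one of 0.13 in high and -0.45 in normal glucose. Of 25 ribosomal protein genes 1 was higher in high glucose and 4 were lower in normal glucose, with medians of 0.12 and -0.08, and the difference was positive for 6 and negative for 0. Translation factors had 4 of 13 lower in normal glucose and a positive difference for 3. Over all genes 1.88% were lower over both media, 2.84% higher in high glucose and 4.43% lower in normal glucose, and 4.13% had a positive difference. Smaller lists had a larger share for the difference. Fibroblast and pericyte markers had 0 positive and 3 negative of 7 tested, and heat shock genes 4 positive and 1 negative of 13.

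Of 27 lysosome and autophagy genes 0 were higher in high glucose (median -0.03) and 4 in normal glucose (median 0.13) at an unadjusted p under 0.05, with a negative difference for 3. Fatty acid synthesis genes had 1 of 16 higher in high glucose, 3 in normal glucose, among them Scd2 (0.38), and a negative difference for 4. Over all genes 2.84% were higher in high and 3.68% in normal glucose, and 4.22% had a negative difference. Among the ribosome biogenesis, ribosomal protein, translation factor, lysosome and fatty acid synthesis lists, Dkc1 passed in normal glucose with all 23 libraries. Without NG3 replicate 3, Dkc1, Ddx21 and Eif3a of these lists passed there.

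**Figure D5:**
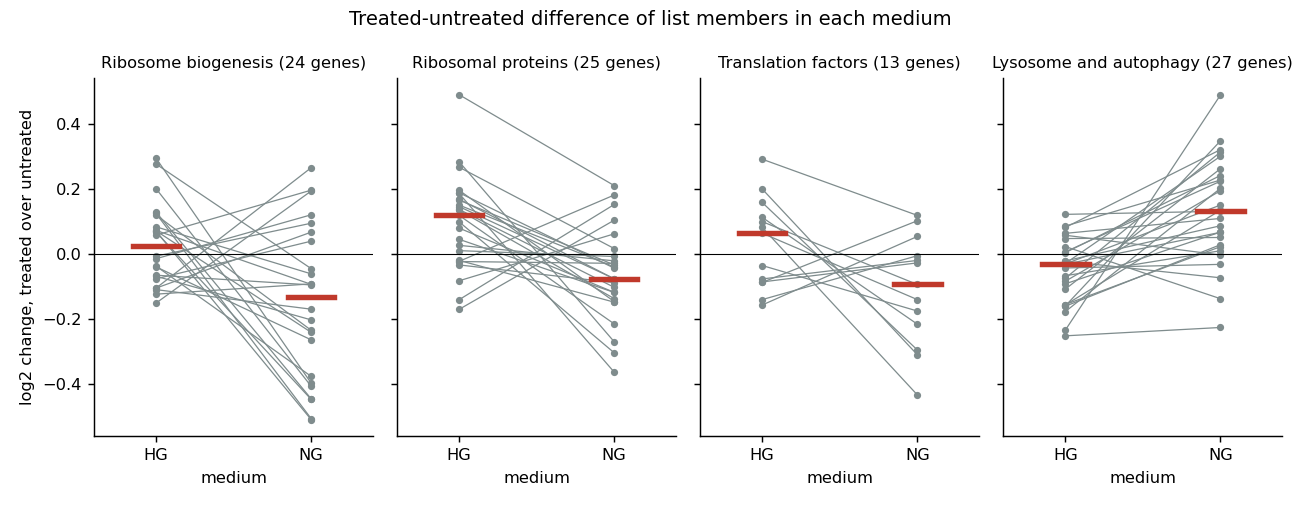
Log2 change of treated over untreated libraries in high glucose (HG) and in normal glucose (NG) for each tested gene of 4 lists, joined by a line per gene, with list medians in red. Medians in high and normal glucose were 0.03 and -0.13 for ribosome biogenesis, 0.12 and -0.08 for ribosomal proteins, and -0.03 and 0.13 for lysosome and autophagy genes.

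Of 9 tested genes of Notch and Wnt signalling, changes were negative for 9 in high glucose, 2 in normal glucose and 6 over both media. Of all 13332 genes they were negative for 6531, 6428 and 6645. In high glucose 2 of the 9 were lower at an unadjusted p under 0.05, beside 2.43% of all genes. Hes1, a repressor switched on by Notch, had a change of -0.98 in high and 0.01 in normal glucose (-0.51 ± 0.24 over both media), and Clk1, a kinase of splicing factors, one of -0.58 in high and 0.01 in normal glucose (-0.29 ± 0.12 over both). Neither passed, and without HGC replicate 3 their changes over both media were -0.32 and -0.17.

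The 3 dose labels share the same untreated libraries, and each was set against them over both media in a fit without the library deposited under both HG2 and HG3. None of the 13281 genes passed at any label in edgeR (0%), and 4.93%, 4.63% and 6.48% had an unadjusted p under 0.05 at labels 1, 2 and 3, while DESeq2 called 0, 2 and 2 genes. Neat1 had changes of -0.31, -0.53 and -0.56 at labels 1, 2 and 3, with the lowest adjusted p at label 3 (0.0591). Snhg5 had changes of -0.14, -0.53 and -0.42, with an adjusted p of 0.0597 at label 2, where it passed in 9 of 29 alternatives, among them the fit with the shared library counted in HG2 (adjusted p = 0.0412). Taf7, a subunit of the general transcription factor TFIID, had a change of -0.86 at label 3 (adjusted p = 0.0591). It was at 9.08 CPM in NG3 replicate 3, the lowest of all libraries, and without that library its change was -0.72 (adjusted p = 0.279). Uchl1, a deubiquitinase abundant in neurons, had its widest change at label 1 (-0.73), and differences between labels were not tested.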

How the data were processed

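RNA was sequenced from mouse hypothalamic cell cultures, 3 libraries in each of 8 groups (2 media, untreated or at 1 of 3 dose labels). The authors deposited whole-number counts per Ensembl gene for 56941 genes and 5 summary lines per library. HTSeq 1.99.2, STAR 2.7.5c, FastQC 0.11.9 and build GRCm39 are listed in the submitters' processing notes. Whether counting used strand is not given in the sources here, so overlapping and antisense genes cannot be told apart. Summary lines were left out of library sizes and tests. Symbols matched 51948 IDs, which held 91.8% of gene counts.

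Counts were tested with edgeR 4.0.16 (R 4.3.3): TMM factors, filterByExpr over the groups (43609 IDs removed), quasi-likelihood F-test with robust estimation, Benjamini-Hochberg adjustment at 0.05. The model held treatment and medium; other models fitted treatment within each medium with the difference, and the dose labels. Standard errors are the log2 change over the root of F. CPM in the text are TMM-scaled, except that marker and list sums and the highest values of Tas1r2 and Tas1r3 use plain CPM. Library-level measures were compared by exact permutation within medium. Alternatives were DESeq2 1.42.0, other scaling, no filter, no robust estimation, no medium term, replicate block, handling of the shared library and each library left out. Genes were named by lowest p in each direction (mean of at least 5 CPM, same sign in both media) and from 51 lists, up to 3 each, with the sweet taste list in full but for 1 gene that is not reported here; Taf7, Vim and the genes named for 1 medium were chosen from their values. The comparison and lists were chosen with earlier results of these data known. No label gives a batch. Libraries held 3272671 to 7773074 gene counts, and genes of a few counts carry wide intervals.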

Additional observations from a re-analysis of the deposited data

Results flagged for a closer look

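In 15 of 144 groups of treated libraries tested, 1 library lay far from the rest of its group, and in 5 of them it was NG3 replicate 3. Most genes in these groups were chosen from the same values, and the groups share libraries, so no chance rate is set beside the count. Ddx21, Eif3a and Kif20b were named after passing in normal glucose without NG3 replicate 3, so their part in the 5 was favoured by that choice. Among the 9 treated normal glucose libraries NG3 replicate 3 was lowest for Ddx21 (138 CPM, others 236 to 312), Eif3a (421 CPM, others 609 to 783) and Kif20b (29.7 CPM, others 133 to 183). It was also lowest for the share of reads in no feature (14.4%) and highest for the share aligned to several places (18.9%). NG2 replicate 1 had 7773074 gene counts, against 3539760 to 4310446 in the others, and the highest Postn (69.9 CPM). In the same group Timm21 was lowest in NG2 replicate 3 (6.82 CPM), Igf1 in NG3 replicate 2 (5.075 CPM) and Ndufs3 in NG1 replicate 3 (17.2 CPM).

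Among the 8 treated high glucose libraries Rpia was highest in HG3 replicate 3 (35.1 CPM, others 22.6 to 27.4) and Srebf1 in HG2 replicate 2 (40.9 CPM). Timp3 was lowest in HG1 replicate 2 (72.6 CPM, others 92.5 to 107), Cry1 in HG2 replicate 1 (5.655 CPM) and Cdk11b in HG3 replicate 1 (127 CPM, others 149 to 160).

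The treatment effect differed between the media, high glucose minus normal glucose, for Celf4 (0.84), Itm2c (-0.71), Ly6a (-0.81) and Cyp4v3 (-1.69) by a test of the difference itself. None of these passed when HGC replicate 2 alone was left out.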

How the results depend on the processing

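Counts of genes called moved with the tool and the filter. DESeq2 called 1 gene over both media, 55 in normal glucose, 49 for the difference between media and 2 each at dose labels 2 and 3. With no low-count filter there were 3 over both media (Neat1, Jun and Topors), 45 in normal glucose, 3 in high glucose, 39 for the difference, and 1, 8 and 13 at labels 1, 2 and 3; that filter removes genes of few counts and changes the estimate of the spread. Without robust estimation 2 genes passed over both media. With the shared library left out, 0 passed in normal glucose and 1 (Celf4) for the difference; adding the replicate block to that fit gave the same counts, 0 and 1, and changed no other call. With the shared library counted in HG2 or in HG3, 1 gene passed at label 2. With NG3 replicate 3 and HGC replicate 2 both dropped, an alternative chosen after seeing the data, 8 passed in normal glucose and 2 (Celf4 and Itm2c) for the difference. Leaving out 1 library at a time gave 0 to 1 genes over both media, 0 to 9 in normal glucose (9 without NGC replicate 3), 0 in high glucose, 0 to 20 for the difference (20 without NGC replicate 3, 0 without HGC replicate 2), 0 at label 1, 0 to 3 at label 2 and 0 to 2 at label 3. The causes of these changes were not tested.

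Same-numbered libraries did not pair: their residuals had a mean r of 0.0086 over 70 pairs, against -0.0043 over 141 others, and 7 of 22 libraries correlated best with their own number. Of the values of 1 gene in 1 alternative fit, 9 turned sign (6 for Hk2, 2 for Slc2a3 and 1 for Slc2a1). In 2348 the sign and the call stayed the same. Hk2 (main value 0.01) was -0.0050 with equal weights for the 8 group means and ran from -0.027 to 0.089 with 1 library left out, Slc2a3 from -0.47 to 0.019 and Slc2a1 from -0.0063 to 0.13. Neat1 was negative in all alternatives (-0.51 to -0.37, adjusted p 2.37e-07 to 0.9997). Only 6 untreated libraries, 3 in each medium, enter every contrast, and depth limits genes of a few CPM.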
